A study of Mus musculus with 2 samples.

Results

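Intergenic DNase I hypersensitive sites 10 to 50 kb from a transcription start site (TSS) were taken from DNase-seq peak lists of mouse frontal cortex. A site was a peak of replicate 1 that overlapped a peak of replicate 2 by at least 1 bp, lay on an autosome, had its midpoint in no annotated gene body and had its nearest TSS more than 10 kb and at most 50 kb away. The genome build was mm10 with GENCODE vM21 genes of every type. The start of every annotated transcript counted as a TSS. Distances to a gene, and the start of a gene, refer to its transcript start nearest the site. That start can lie inside the gene and can differ between sites of the same gene. This rule gave 4495 of the 40822 shared autosomal peaks, or 11.01%. DNase-seq maps DNA that the nuclease DNase I can cut, which marks chromatin cleared of nucleosomes.

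The 2 libraries were biological replicates of 1 group. The tissue was frontal cortex of male B6CASTF1/J mice, an F1 cross of C57BL/6J and CAST/EiJ, aged 10 days, with no treatment or modified allele named. Both labels point to the same donor entry and note 3 males, so pooling of animals is possible and is not stated, and spread between the libraries may be technical. With 1 group there is no comparison between conditions, and an exact paired sign-flip test over 2 libraries cannot go below p = 0.5, so classes of sites are described in each library with no p.

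The cortical label was set beside promoter peaks. The gene lists were chosen with earlier results of these data known, so this is a description and no independent check. Of the genes in lists written for this tissue, 16 of 18 excitatory neuron markers, 17 of 18 forebrain and progenitor regulators and 18 of 18 immediate early genes had a shared peak within 1 kb of a TSS, against 0 of 14 hindbrain and spinal regulators and 58.6% of all protein-coding genes. The excitatory neuron markers without one were Fezf2 and Slc17a7. Housekeeping genes, with 12 of 12, and cadherins and protocadherins, with 16 of 19, had such a peak in comparable shares. Among the other lists, 10 of 14 astrocyte, 13 of 19 interneuron, 7 of 10 oligodendrocyte precursor, 5 of 12 microglial, 3 of 13 endothelial and 2 of 10 myelinating oligodendrocyte markers had such a peak. In bulk tissue, fewer cells of a type and less accessible chromatin per cell cannot be told apart. Depth in reads is unknown, since the files give no counts. Each library's densities rise in equal steps (100% within 0.05 of a step), and the ratio of the steps gives replicate 2 a relative depth of 1.65.

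Open chromatin far from promoters is where enhancers and insulators lie. Enhancers bind combinations of transcription factors and raise transcription of genes on the same chromosome, and in developing cortex they are known to carry motifs of neuronal bHLH factors such as NeuroD, of nuclear factor I (NFI), of RFX and MEF2 factors and, in active neurons, of AP-1, the Fos and Jun dimer. Insulators and loop anchors bind CTCF. A factor that sits on DNA shields it from DNase I and leaves a footprint, a short gap in cleavage inside an open site.

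Sequences of 6 sites are shown because each holds a motif that lay under a footprint in both libraries. Each is the 150 bp centred on the peak midpoint, plus strand, GRCm38.p6 (mm10), with the motif match in capitals. For each motif the strongest such site was taken.
CTCF, chr13:37312658-37312807, 13733 bp upstream of the lincRNA Gm47711: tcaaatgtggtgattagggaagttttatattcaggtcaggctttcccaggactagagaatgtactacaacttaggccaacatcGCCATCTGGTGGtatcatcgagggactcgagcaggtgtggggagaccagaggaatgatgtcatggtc
RFX, chr11:94160538-94160687, 24953 bp downstream of the start of B230206L02Rik: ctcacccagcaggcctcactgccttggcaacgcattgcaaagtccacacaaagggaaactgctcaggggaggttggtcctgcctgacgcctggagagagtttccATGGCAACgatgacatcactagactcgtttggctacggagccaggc
NFI, chr15:85613966-85614115, 31568 bp upstream of Wnt7b: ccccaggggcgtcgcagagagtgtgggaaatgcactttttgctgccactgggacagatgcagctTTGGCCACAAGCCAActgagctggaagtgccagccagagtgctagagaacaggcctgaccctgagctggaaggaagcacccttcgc
NRF1, chr5:142367366-142367515, 34056 bp upstream of Foxk1: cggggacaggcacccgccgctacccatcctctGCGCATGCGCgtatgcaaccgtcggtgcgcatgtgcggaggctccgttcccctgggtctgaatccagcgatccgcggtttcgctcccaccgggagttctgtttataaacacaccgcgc
CRE, chr8:117470374-117470523, 11184 bp downstream of the start of Mir7078: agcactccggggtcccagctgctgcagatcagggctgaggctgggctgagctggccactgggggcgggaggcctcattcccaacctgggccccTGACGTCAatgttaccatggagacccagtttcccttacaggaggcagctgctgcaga
SP/KLF, chr14:65343808-65343957, 14506 bp upstream of Zfp395: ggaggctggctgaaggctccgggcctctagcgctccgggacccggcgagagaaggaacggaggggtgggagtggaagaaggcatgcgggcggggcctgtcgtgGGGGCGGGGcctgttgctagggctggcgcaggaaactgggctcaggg
At the Gm47711 site the footprint over the CTCF match spanned chr13:37312726-37312768 in replicate 1, and in replicate 2 its limits were chr13:37312725-37312764. The RFX site is listed by RefSeq inside the VISTA enhancer mm1496, which drove expression in forebrain and hindbrain of transgenic mice, and its window also holds the NFI core TTGGCA.

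The sites were of middling strength. Strength is the peak's density, the authors' read-depth-normalised signal, and its percentile is the rank within the library's own list, from 0 for the weakest to 100 for the strongest. The median density was 1.144 in replicate 1, with a range of 0.364 to 16.8, and 0.907 in replicate 2, with a range of 0.233 to 11.7. The median percentile was 41.5 in replicate 1 and 45.6 in replicate 2. Intergenic sites 1 to 10 kb from a TSS stood at 51.1 in replicate 1 and 54.8 in replicate 2, intergenic sites beyond 50 kb at 26.9 in replicate 1 and 31.0 in replicate 2, and intronic sites beyond 20 kb at 36.8 in replicate 1 and 43.0 in replicate 2. In each library the 10 to 50 kb sites thus ranked below the nearer and above the farther intergenic sites, while the interquartile ranges of all 4 classes overlapped.

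**Figure D1:**
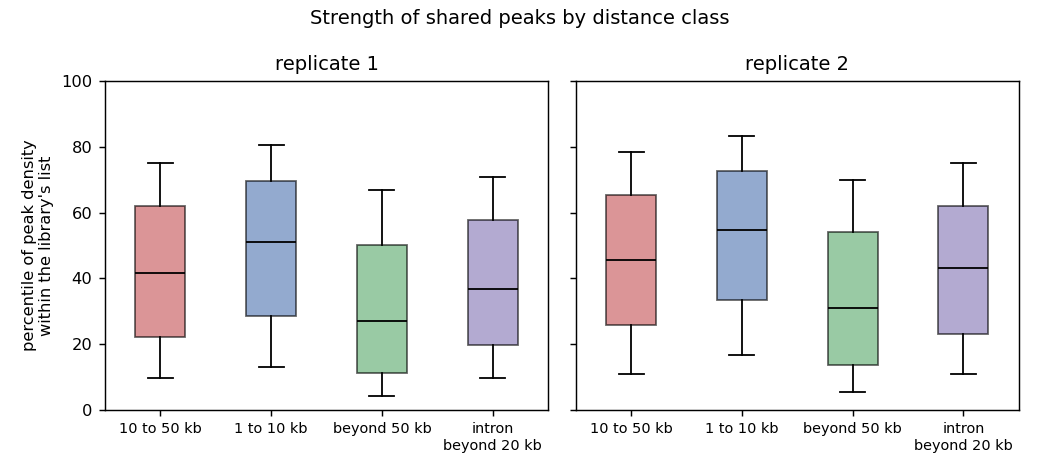
Percentile of peak density within the list of each library (vertical axis, 0 to 100) for intergenic sites 10 to 50 kb, 1 to 10 kb and beyond 50 kb from a TSS and intronic sites beyond 20 kb. Boxes span the quartiles, the line is the median and whiskers reach the 10th and 90th percentiles of sites; the 10 to 50 kb boxes are centred at 41.5 in replicate 1 and 45.6 in replicate 2, between the other intergenic classes.

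Within the class, strength decreased with distance. The 2034 sites at 10 to 20 kb had median percentiles of 44.7 in replicate 1 and 48.1 in replicate 2, the 1230 sites at 20 to 30 kb 42.2 in replicate 1 and 46.6 in replicate 2, the 734 sites at 30 to 40 kb 35.4 in replicate 1 and 39.1 in replicate 2, and the 497 sites at 40 to 50 kb 33.2 in replicate 1 and 36.0 in replicate 2. The limits of the class were met closely. A site 10001 bp from the TSS of Rpl7-ps7 had densities of 0.738 in replicate 1 and 0.629 in replicate 2, and the nearest site outside that limit, 9997 bp from the TSS of Gm26863, had 0.963 in replicate 1 and 0.752 in replicate 2. A site 49847 bp from the TSS of Kbtbd8 had densities of 0.620 in replicate 1 and 0.532 in replicate 2, and one just past the outer limit, 50021 bp from Gm42857, had 0.856 in replicate 1 and 0.674 in replicate 2.

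Strong sites were few and rich in CpG. Of the 4495 sites, 47 (1.05%) lay above the 90th percentile in both libraries, against 2.34% of sites at 1 to 10 kb, 0.315% of sites beyond 50 kb, 0.340% of intronic sites beyond 20 kb and 21.9% of promoter peaks. These 47 had a median GC content of 62.7% and a median CpG ratio, observed over expected, of 0.682, against 53.3% and 0.301 in the other members. A GC content of at least 60% with a CpG ratio of at least 0.6 was met by 25 of the 47 (53.2%, 95% Wilson interval 39.2 to 66.7%) and by 177 of the other 4448 (3.98%). No CTCF match fell in these 47, and their median number of footprints was 6 in each library, against 2 in replicate 1 and 3 in replicate 2 in the other members.

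The strongest member by mean percentile, at chr7:38084856-38085176, had densities of 15.94 in replicate 1 and 11.65 in replicate 2. It lay 14353 bp downstream of the nearest annotated transcript start of Ccne1, which encodes cyclin E1. The second, at chr15:85634491-85634855, had 16.83 in replicate 1 and 9.60 in replicate 2. Its nearest gene was the lincRNA Gm49539, and its nearest protein-coding gene was Wnt7b, a Wnt ligand made in cortical neurons, 52200 bp away. The others among the 10 strongest lay nearest to Rpl30-ps6, Zfp395, Gm6989, Fos, Prrc2b, Zfp239, Gm43980 and Foxk1, with densities between 9.74 and 15.5 in replicate 1 and between 6.34 and 9.37 in replicate 2. All 10 sat above the 96th percentile in both libraries.
The 150 bp window of the Ccne1 site is shown because 89 of its bases lay under a footprint in both libraries, in capitals.
Ccne1 site, chr7:38084941-38085090, plus strand: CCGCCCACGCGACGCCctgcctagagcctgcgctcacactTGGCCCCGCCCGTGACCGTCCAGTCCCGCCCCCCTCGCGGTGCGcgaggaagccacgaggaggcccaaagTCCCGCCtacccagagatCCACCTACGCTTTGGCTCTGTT
Annotation matters here, since a site is intergenic only as far as GENCODE lists genes. In the RefSeq annotation of the same build, 282 members (6.27%) lay within 1 kb of a transcript start, 517 others lay inside a RefSeq gene body, and 3696 (82.2%) lay in neither. The 282 were stronger, with median percentiles of 54.4 in replicate 1 and 57.7 in replicate 2, than the 3696, with 39.5 in replicate 1 and 43.6 in replicate 2. RefSeq starts here include those of tRNA, snRNA and snoRNA genes. The members over tRNA genes described below are thus among the 282, and their part in its strength was not tested. Of the 47 strong sites described above, 10 (21.3%) lay within 1 kb of a RefSeq transcript start, against 6.27% of all members. The site over a tRNA-Thr gene described below is among these 10. Among the 10 strongest, the Gm49539 site was 77 bp from a RefSeq start of D130051D11Rik. The Zfp239 site was 31 bp from one of Gm38882, and both genes are long non-coding RNAs. The Ccne1, Gm49539, Fos and Zfp239 sites lay inside a RefSeq gene body, and the others among the 10 did not. The nearest RefSeq start was 15144 bp from the Ccne1 site and 3330 bp from the Fos site.

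Most sites carried footprints in both libraries. At least 1 footprint overlapped 4159 sites (92.5%) in replicate 1 and 4339 (96.5%) in replicate 2, and 4039 sites (89.9%, interval 88.9 to 90.7%) had a footprint in each. The share in both libraries was 89.5% at 1 to 10 kb, 86.5% beyond 50 kb, 89.5% in introns beyond 20 kb and 84.2% at promoters. The members stood 3.40 percentage points above the sites beyond 50 kb (95% Newcombe interval 1.56 to 5.37), whereas the interval of the difference included 0 for the sites at 1 to 10 kb (0.321 points, -1.01 to 1.67) and for the intronic sites (0.382 points, -1.02 to 1.82). In replicate 2 alone the difference from the sites beyond 50 kb was 0.562 points (-0.475 to 1.76). These intervals cover counting error over sites only.

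**Figure D2:**
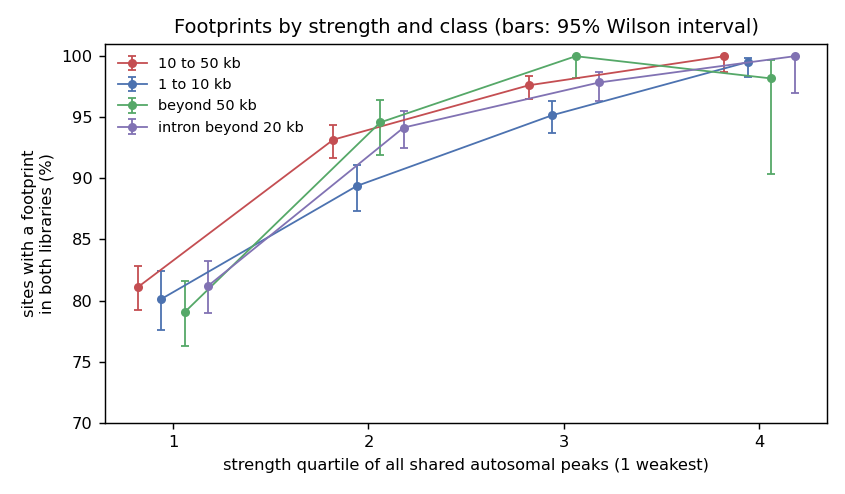
Share of sites with a footprint in both libraries (vertical axis, percent, from 70) by strength quartile of all shared autosomal peaks (horizontal axis) for the 10 to 50 kb sites and the 3 compared classes, with 95% Wilson intervals. The share of the 10 to 50 kb sites was 81.1% in the weakest quartile and 100% in the strongest.

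The share followed strength. In the weakest quartile of all shared peaks it was 81.1% of 1788 members, then 93.2% of 1361, 97.6% of 1049 and 100% of 297. Within the weakest quartile, which held 39.8% of the members and 57.8% of the sites beyond 50 kb, the difference between these classes was 2.03 points (-1.10 to 5.29), and within the second it was -1.41 points (-3.746 to 1.503). In the third, where all 209 sites beyond 50 kb had footprints in both libraries, the members were lower (difference -2.38, interval -3.50 to -0.423). Against the sites at 1 to 10 kb the members were higher in the second quartile by 3.79 points (1.52 to 6.15) and in the third by 2.45 points (0.850 to 4.12).

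Footprints were short and only partly shared. The members held 11659 footprints in replicate 1 and 13416 in replicate 2, with median lengths of 9 and 10 bp. Of these, 56.7% in replicate 1 and 47.4% in replicate 2 overlapped a footprint of the other library. A replicate 1 footprint that overlapped one of replicate 2 by at least 1 bp was found in 3433 members (76.4%). The share was 79.4% of sites at 1 to 10 kb, 67.7% of sites beyond 50 kb and 74.1% of intronic sites. No footprint in either library was found in 36 members (0.801%), against 3.38% of all shared autosomal peaks and 5.50% of promoter peaks. The other distal classes were also low, with 1.38% at 1 to 10 kb, 1.13% beyond 50 kb and 0.849% in introns beyond 20 kb.

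The sequence of the members lay between that of nearer and farther sites. The median GC content of the 150 bp windows was 53.3%, against 54.0% at 1 to 10 kb, 51.3% beyond 50 kb and 46.0% in windows of the same length 1 kb to each side of the members. The median CpG ratio was 0.303, against 0.321 at 1 to 10 kb and 0.250 beyond 50 kb. Repeat-masked bases were absent from 64.0% of windows, and made up at least 50% of a window in 44 members (0.979%).

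A set of 20 motifs was searched on both strands of these windows. CTCF, MEF2, the full NFI palindrome and NRF1 are given by name. The others named here are CAGATG (NeuroD-type E-box), CAGCTG (palindromic E-box), CAGGTG (Zeb-type E-box), TTGGCA (NFI core), TGANTCA (AP-1), TGACGTCA (CRE, bound by CREB and ATF factors), GTTGCCAT (RFX), GGGGCGGGG (SP/KLF), GCGGGGGCG (EGR), TAATTA (homeobox), TAGGTCA (ROR), ATGCAAAT (POU) and ACATTCCA (TEAD). The CTCF pattern can contain CAGATG or CAGGTG, and the NFI palindrome can contain the core. At least 1 of the 20 occurred in all but 1523 members (33.9%).

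CTCF matches fell in 446 members (9.92%, 9.08 to 10.8%). The share was 0.143% in the flanking windows, 5.36% over all shared autosomal peaks and 1.52% at promoters. Among the distal classes it was 11.5% at 1 to 10 kb, 6.30% beyond 50 kb and 7.06% in introns beyond 20 kb. The members exceeded the sites beyond 50 kb by 3.62 points (2.07 to 5.04) and the intronic sites by 2.86 points (1.57 to 4.12). They stood 1.53 points below the sites at 1 to 10 kb (difference -1.53, interval -2.91 to -0.174), an interval that included 0 with protein-coding genes only (-0.376, -1.98 to 1.17), with gene 5′ ends as TSSs, with the stricter FDR and with the smaller alignment-derived lists.

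The NeuroD-type E-box had the opposite order. It fell in 929 members (20.7%, 19.5 to 21.9%), against 17.0% at 1 to 10 kb, 22.9% beyond 50 kb, 23.4% in introns beyond 20 kb, 6.24% at promoters and 11.2% in flanking windows. The members were 3.66 points above the sites at 1 to 10 kb (1.94 to 5.36) and 2.76 points below the intronic sites (difference -2.76, interval -4.71 to -0.840), and the interval of the difference from the sites beyond 50 kb included 0 (-2.27, -4.70 to 0.0692). In 43 members the E-box match overlapped a CTCF match. Without windows holding CTCF the share was 20.3% of 4049 members, against 16.7% at 1 to 10 kb and 23.5% beyond 50 kb, and the interval of the difference from the sites beyond 50 kb then left out 0 (-3.29, -5.82 to -0.845). The call likewise changed with the larger read-derived lists, protein-coding genes only, windows of 100 or 200 bp and either library alone.

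The NFI core showed the same order, with 813 members (18.1%), against 14.6% at 1 to 10 kb, 21.5% beyond 50 kb and 6.98% in flanking windows. The palindromic E-box fell in 805 members (17.9%), against 16.8% at 1 to 10 kb, 21.8% beyond 50 kb and 6.91% in flanking windows. Along the class itself, in bins of 10 to 20, 20 to 30, 30 to 40 and 40 to 50 kb, CTCF fell in 11.3%, 8.78%, 9.67% and 7.45% of sites, the NeuroD-type E-box in 19.3%, 18.4%, 25.2% and 25.2%, and the NFI core in 16.6%, 18.1%, 19.6% and 21.9%.

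**Figure D3:**
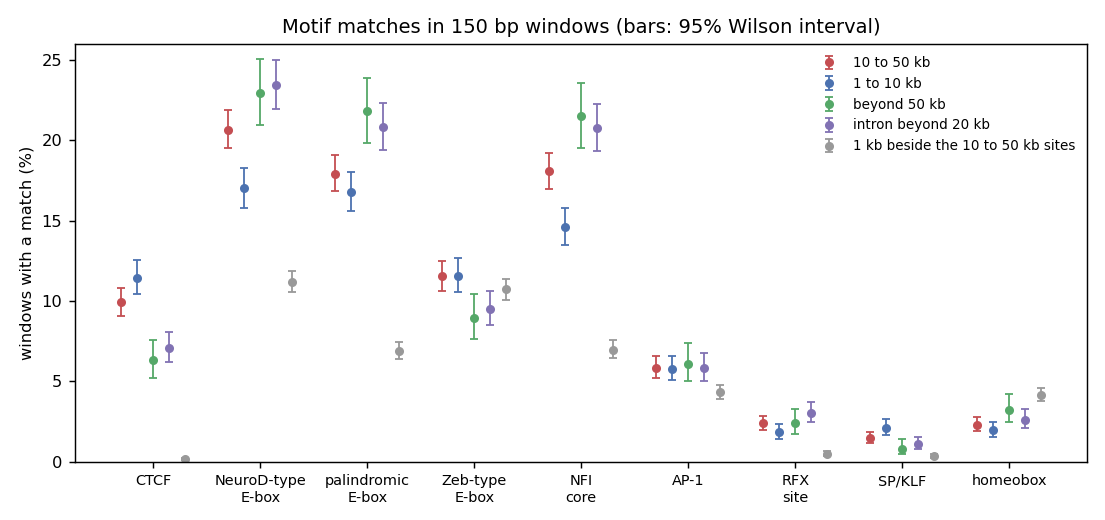
Share of 150 bp windows with a match (vertical axis, percent) for 9 motifs in the 10 to 50 kb sites, the 3 compared classes and windows 1 kb beside the 10 to 50 kb sites, with 95% Wilson intervals. CTCF fell in 9.92% of the 10 to 50 kb sites and 0.143% of flanking windows, while the homeobox motif was more frequent in flanking windows.

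The remaining motifs varied in how they compared with the flanking windows. AP-1 fell in 262 members (5.83%), against 5.78% at 1 to 10 kb, 6.11% beyond 50 kb and 4.34% in flanking windows, a difference from the flanks of 1.49 points (0.694 to 2.32). The homeobox motif fell in 2.31% of members and 4.16% of flanking windows. The homeobox letters are AT-rich and the flanks had the lower GC content, and the part of base composition in this was not tested. The Zeb-type E-box fell in 11.5% of members and 10.7% of flanking windows, with an interval of the difference from -0.300 to 1.99 points. In 84 members its match overlapped a CTCF match. Without windows holding CTCF its share was 9.78% of 4049 members, below that of the flanking windows. RFX fell in 107 members (2.38%) and 0.488% of flanking windows, a difference of 1.89 points (1.45 to 2.40). SP/KLF fell in 65 members (1.45%), against 11.4% of promoter peaks and 0.333% of flanking windows, a difference from the flanks of 1.11 points (0.770 to 1.52). CRE fell in 0.423% of members and 0.0714% of flanking windows, and EGR in 0.289% of members and 0.0238% of flanking windows.

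Motifs differed widely in how often they lay under a footprint. Of the 446 members with CTCF, the match was under a footprint in 408 (91.5%) in replicate 1 and 420 (94.2%) in replicate 2, and in both libraries in 397 (89.0%, 85.8 to 91.6%). For NRF1, an activator of nuclear genes for mitochondria, it was in both libraries in 12 of 13. For CRE it was in both in 12 of 19, for SP/KLF in 37 of 65 (56.9%) and for RFX in 59 of 107 (55.1%, 45.7 to 64.2%). Footprints covered 16.7% of all window bases in replicate 1 and 19.4% in replicate 2.

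The NFI core, the E-boxes, AP-1 and several rarer motifs were under footprints in smaller shares of their members. The NFI core was under a footprint in both libraries in 220 of 813 members (27.1%). For the NeuroD-type E-box this held in 16.7% of the 820 members without CTCF, for the palindromic E-box in 18.7% of 739 and for the Zeb-type E-box in 32.1% of 396. AP-1 had the match under a footprint in 47 of 262 members (17.9%) in replicate 1, in 62 (23.7%) in replicate 2 and in 26 (9.92%) in both. The lowest shares in both libraries were 1 of 35 members for ROR, 6 of 104 for homeobox, 4 of 56 for POU and 3 of 38 for TEAD. Motifs differ in length, and a longer one overlaps a footprint more readily.

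Coverage base by base avoids that; it was taken over all matches, those in windows with a CTCF match included. Within 3 bp of the centre of CTCF matches, footprints covered 84.0% of matches in replicate 1 and 89.7% in replicate 2, against 5.19% in replicate 1 and 6.04% in replicate 2 at 40 to 60 bp away. At RFX matches the centre was covered in 51.0% in replicate 1 and 62.5% in replicate 2, against 12.3% and 14.2% at 40 to 60 bp. At the NFI core it was 28.4% in replicate 1 and 36.1% in replicate 2, against 12.3% and 14.9%, and at the NeuroD-type E-box 25.1% in replicate 1 and 25.01% in replicate 2, against 11.97% and 14.9%. The centres of AP-1 matches were covered in 9.57% in replicate 1 and 13.3% in replicate 2, below the 12.4% and 16.1% at 40 to 60 bp, and POU matches in 10.3% in replicate 1 and 9.85% in replicate 2, below 13.6% and 16.2%.

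**Figure D4:**
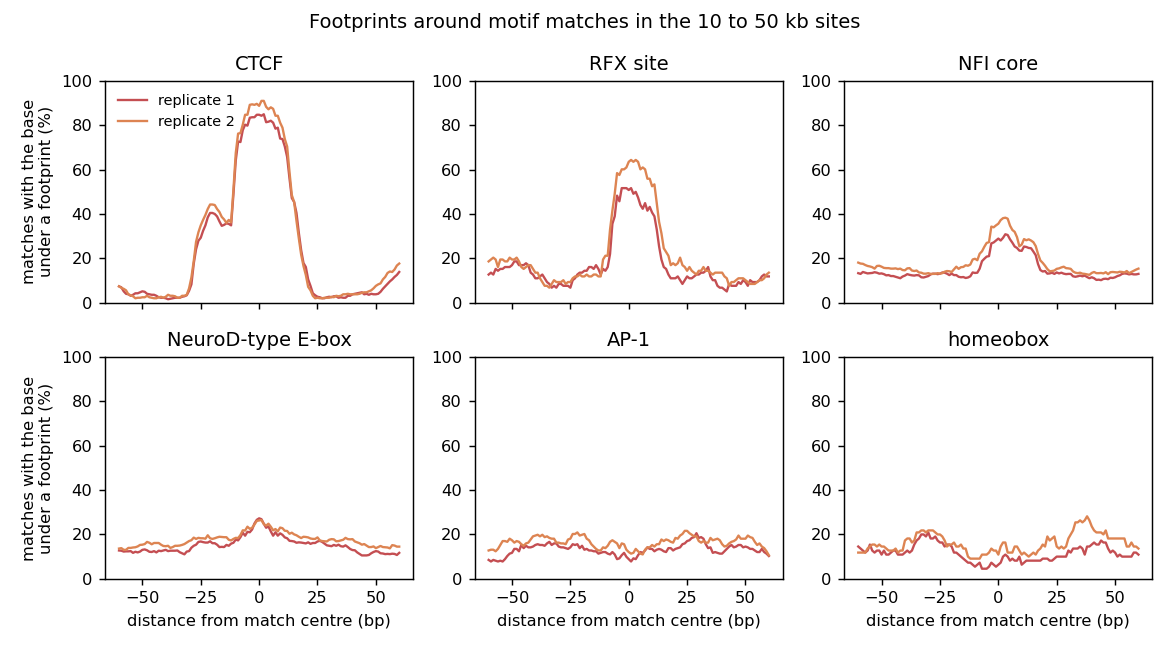
Share of motif matches with each base under a footprint (vertical axis, percent) by distance from the match centre (horizontal axis, bp, read along the motif) in the 10 to 50 kb sites, with a line for each library. CTCF reached 84.0% in replicate 1 and 89.7% in replicate 2 at the centre with a shoulder on the side before the match, RFX, NFI core and NeuroD-type E-box peaked lower, and AP-1 and homeobox showed no peak at the centre.

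CTCF matches stood out in shape as well. Their footprints had median lengths of 24 bp in replicate 1 and 25 bp in replicate 2. Read along the motif, footprints extended to one side, covering 37.5% of matches in replicate 1 and 41.5% in replicate 2 at 16 to 24 bp before the centre, against 17.3% in replicate 1 and 14.96% in replicate 2 at the same distance after it. The match lay within 25 bp of the peak midpoint in 72.9% of 447 matches, compared with 36.5% for AP-1 and 42.2% for the NeuroD-type E-box. The sites were narrower, with a median width in replicate 1 of 252 bp, against 288 bp in members without CTCF. Their median percentile was 49.6 in replicate 1 and 47.4 in replicate 2, against 40.2 and 45.0 in members without CTCF. The match strand pointed toward the nearest TSS in 219 of 447 matches (49.0%, 44.4 to 53.6%).

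The nearest TSS belonged to a protein-coding gene for 1782 members (39.6%), to a lincRNA for 1008 and to a processed pseudogene for 866. The members lay upstream of it in 51.8% of cases (50.4 to 53.3%), against 67.3% at 1 to 10 kb, 48.5% beyond 50 kb and 40.3% in introns beyond 20 kb. The class rules themselves shape these shares. An intergenic site downstream of a start must lie past the end of that gene, whereas an intronic site must lie inside a gene. How far this sets the order was not tested. With protein-coding genes only the upstream share of the class was 57.1%. Of the 1275 protein-coding genes nearest to a member, 860 (67.5%, 64.83 to 69.97%) had a shared promoter peak, compared with 58.6% of all 20807 autosomal protein-coding genes. The same share was 70.8% of genes nearest to sites at 1 to 10 kb, 74.5% beyond 50 kb and 80.0% for introns beyond 20 kb. Nearest in distance does not make a gene the target of a site.

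Most genes had a single site. Of the 3243 genes nearest to a member, 2404 (74.1%) had 1 and 7 had 6. Calcoco1 had 9, on both sides of the gene, with percentiles of 34.7 to 82.1 in replicate 1 and 54.4 to 88.8 in replicate 2. They lay 11.5 to 24.8 kb from the nearest of its transcript starts, which was inside the gene for the downstream sites. The lincRNA Gm30806 had 8, Trim27 and Vwa5b1 had 7, and Wnt7b, Itprid1, Foxo6, Fbln2, Gm25888 and Gm22614 were among the 7 genes with 6. When members were joined into runs over gaps between midpoints of up to 12480 bp (the next larger gap being 12540 bp), 2702 members (60.1%) stood alone and 745 (16.6%) fell in 210 runs of 3 or more. The longest runs had 9 sites each. One spanned 22.0 kb on chromosome 14 before Gm30806 and the other 35.9 kb on chromosome 15 between Wnt7b and Gm49539. The Wnt7b run was the stronger, with median percentiles of 69.5 in replicate 1 and 76.2 in replicate 2, against 26.9 in replicate 1 and 52.2 in replicate 2 on chromosome 14. Neighbouring peaks of replicate 1 can overlap the same wider peak of replicate 2, which was so for 149 members. In the chromosome 14 run, the members at chr14:67135256-67135389 and chr14:67135390-67135425 adjoin and have the same replicate 2 density of 0.998. Their replicate 2 percentile, 52.2, is also the median of that run.

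Immediate early genes, which neurons switch on within minutes of activity, were among the lists whose genes were most often nearest. Of 18, 4 (22.2%) were the nearest gene of 1 or more members, 12 sites in all, against 6.13% of all protein-coding genes. Excitatory neuron markers had 4 of 18 (22.2%), with 1 site each at Neurod6, Pou3f2, Bcl11b and Cux2, transcription factors of cortical projection neurons. Astrocyte markers had 3 of 14, forebrain regulators 2 of 18, cadherins and protocadherins 2 of 19, myelinating oligodendrocyte markers 2 of 10, oligodendrocyte precursor markers 1 of 10 and housekeeping genes 1 of 12. None of 19 interneuron, 12 microglial, 13 endothelial or 14 hindbrain genes was the nearest gene of a member. Counting the nearest protein-coding gene, the background became 12.47%, and the lists stood at 7 of 14 for astrocytes, 10 of 19 for cadherins, 8 of 18 for forebrain regulators, 7 of 18 for immediate early genes, 5 of 13 for endothelium, 6 of 18 for excitatory neurons, 3 of 10 for oligodendrocyte precursors, 2 of 10 for myelinating oligodendrocytes, 2 of 12 for housekeeping genes, 3 of 19 for interneurons, 1 of 12 for microglia and 0 of 14 for hindbrain genes. Long genes and genes in sparse regions have more sequence in which they are the nearest, which was not adjusted for.

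Fos, a subunit of AP-1, had 3 members. The strongest lay 18.5 kb upstream at chr12:85455136-85455626 with densities of 10.45 in replicate 1 and 8.63 in replicate 2 and 9 footprints in each library. RefSeq lists it inside the VISTA enhancer mm260, reported for heart. The others lay downstream of a different Fos transcript start, the one nearest to them. At 11.2 kb the densities were 5.88 in replicate 1 and 3.64 in replicate 2, and at 13.0 kb 1.69 in replicate 1 and 1.36 in replicate 2. None of the 20 motifs was found in the upstream window, whose bases under a footprint in both libraries are in capitals.
Fos upstream site, chr12:85455306-85455455, plus strand: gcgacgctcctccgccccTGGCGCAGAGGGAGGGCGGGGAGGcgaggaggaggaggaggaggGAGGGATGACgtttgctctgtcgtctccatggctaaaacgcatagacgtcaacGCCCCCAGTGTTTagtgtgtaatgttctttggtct
Egr1, a zinc-finger factor of the same early response, had 4 members in a stretch 23.4 to 26.3 kb downstream of its start. The farthest was the strongest, with densities of 5.005 in replicate 1 and 3.494 in replicate 2, while the other 3 lay between 0.888 and 1.74 in replicate 1 and between 0.927 and 1.15 in replicate 2. Btg2, an antiproliferative gene, had 4 downstream of its start, of which the site at 18.1 kb was the strongest with 4.92 in replicate 1 and 3.325 in replicate 2. That site and both at 15.6 and 15.8 kb overlapped the VISTA enhancer mm1445, which drove expression in forebrain and other nervous tissue. Nr4a1, an orphan nuclear receptor, had 1 member 13.3 kb upstream with densities of 3.36 in replicate 1 and 2.09 in replicate 2.

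Slc1a3, the astrocyte glutamate transporter GLAST, had 4 members 10.7 to 15.9 kb downstream of the nearest of its annotated transcript starts. Distances from the 5′ end of the gene are not given. The percentiles were 19.0 to 81.0 in replicate 1 and 28.4 to 68.7 in replicate 2. Of the 4 members, 2 adjoin each other and meet the same replicate 2 peak. Slc1a3 itself had no shared promoter peak. Hes5, a Notch target, had 2 upstream, with densities of 2.695 and 1.58 in replicate 1 and 1.80 and 1.10 in replicate 2, and Fgfr3, a growth factor receptor, had 1. Of the excitatory neuron genes, the Pou3f2 site had a density of 1.80 in replicate 1 and 0.745 in replicate 2, ranks of 66.3 and 31.0. Mbp, which encodes a myelin protein, had 1 weak member 19.5 kb upstream, with percentiles of 17.4 in replicate 1 and 2.33 in replicate 2, no footprint in either library and no shared promoter peak.

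**Figure D5:**
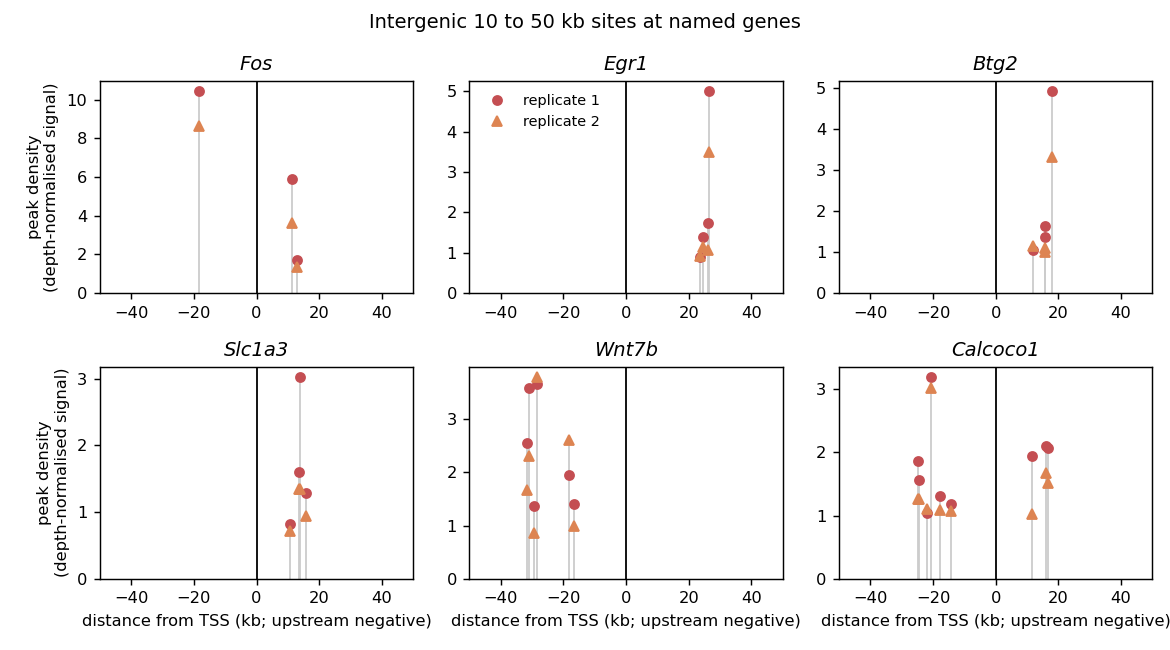
Peak density (vertical axis, depth-normalised signal, scale of its own per panel) of the 10 to 50 kb sites at 6 genes by distance from the TSS (horizontal axis, kb, upstream negative), circles for replicate 1 and triangles for replicate 2. The upstream Fos site, at 10.45 in replicate 1 and 8.63 in replicate 2, is the highest point of the 6 panels.

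Some of the sites lay over tRNA genes. tRNA genes are transcribed by RNA polymerase III and are not among the GENCODE genes that the rule used. In the RefSeq annotation 36 members (0.801%) overlapped a tRNA gene, against 1.92% of sites at 1 to 10 kb, 1 of 1587 sites beyond 50 kb and 2 of 2945 intronic sites. They covered 37 of the 386 autosomal tRNA genes, and 12 of the 36 lay on chromosome 13 between 21160692 and 23501101. All 36 had a footprint in both libraries and none had CTCF. Their median percentile was 69.9 in replicate 1 and 62.6 in replicate 2, against 41.5 and 45.0 in the other members, so they ranked lower in replicate 2 than in replicate 1 while the others ranked slightly higher. Their median CpG ratio was 0.814, against 0.301. Of the sites counted for Trim27, 5 of 7 lay over tRNA genes, and of those for Gm22614, 4 of 6. The strongest lay over a tRNA-Thr gene at chr7:35234739-35235011, with densities of 10.06 in replicate 1 and 5.17 in replicate 2.

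VISTA elements, fragments tested for enhancer activity in transgenic mouse embryos, overlapped 57 members (1.27%, 0.980 to 1.64%), as RefSeq lists them. The share was 0.733% at 1 to 10 kb, 1.07% beyond 50 kb, 1.02% in introns beyond 20 kb and 0.109% at promoters. Of 145 listed elements whose own midpoint met the distance rule, 41 overlapped a member. That was 12 of 44 (27.3%, 16.3 to 41.8%) of those with forebrain activity and 28.7% (20.8 to 38.2%) of those without, intervals that overlap almost wholly. Members in forebrain elements included the RFX site near B230206L02Rik, with densities of 8.26 in replicate 1 and 6.97 in replicate 2.

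The replicates ranked the members broadly alike, but less so than all shared autosomal peaks. As a description, across the 4495 sites, which share library and depth, the Spearman correlation of percentiles was 0.809. The Pearson correlation of log2 density was 0.858. Over all shared autosomal peaks these were 0.909 and 0.948. The Spearman correlation was 0.849 at 1 to 10 kb, 0.772 beyond 50 kb, 0.7725 in introns beyond 20 kb and 0.956 at promoters. The median log2 ratio of density, replicate 2 over replicate 1, was -0.36, and the median difference in percentile was 2.52 points. A difference above 25 percentile points occurred in 445 members (9.90%), against 6.85% of all shared autosomal peaks. It occurred in 8.74% of sites at 1 to 10 kb, 10.9% beyond 50 kb, 12.02% in introns beyond 20 kb and 3.76% of promoter peaks. The 5 with the largest difference all ranked higher in replicate 2. The first, at chr7:124748755-124748807, had densities of 1.27 in replicate 2 and 0.492 in replicate 1, and its widths were 386 bp in replicate 2 and 53 bp in replicate 1. The second, 11200 bp from Gm7572 and 38205 bp upstream of the glutamate receptor gene Grin2a, had 1.31 in replicate 2 and 0.556 in replicate 1, with 2 footprints in replicate 2 and 0 in replicate 1.

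Other lists of the same libraries held the members about as often as shared peaks in general. The smaller list made from alignments contained 80.2% of them in replicate 1 and 84.6% in replicate 2, against 82.0% in replicate 1 and 85.1% in replicate 2 over all shared autosomal peaks. The larger one contained 98.3% in replicate 1 and 98.9% in replicate 2, against 96.6% in replicate 1 and 98.1% in replicate 2 over all shared autosomal peaks. Of the peaks that met the position rule in each library alone, 80.5% of 5582 in replicate 1 and 71.4% of 6285 in replicate 2 were found in the other. The other distal classes were close, with 82.0% in replicate 1 and 74.1% in replicate 2 at 1 to 10 kb. Beyond 50 kb the shares were 80.1% in replicate 1 and 67.1% in replicate 2. Introns beyond 20 kb had 79.0% and 65.8%, and promoters 87.5% and 86.4%, in the same order.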

How the data were processed

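DNase-seq interval lists of 2 libraries, made per library on mm10, were used as deposited. The peak lists of the rule were made from sequencing reads, per the labels and text lists deposited with the samples; the sources used here give no aligner, peak caller, version or threshold. The authors deposited a read-depth-normalised signal per peak (maximum density) with no p-value. Hotspots carry a −log10 FDR per the file headers, and the deposited footprint lists a constant p-value column of 0.01, a threshold. Allele bias in mapping F1 reads to mm10 was not examined.

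Overlaps (at least 1 bp), classes and motif matches came from scripts in pandas 2.3.3, pysam 0.24.0, numpy 2.4.6 and Python 3.11.15 on GRCm38.p6 and GENCODE vM21, after tests on simulated data; figures used matplotlib 3.10.9. Shares carry 95% Wilson intervals and differences 95% Newcombe intervals. Flanking windows that touched any listed peak were left out. Named sites were the 10 strongest, the 5 differing most between libraries, the strongest per motif under a footprint, the sites nearest the limits, the 10 genes with most sites and, per gene list, up to 3 genes with most sites; sites over tRNA genes and VISTA elements and at Mbp were picked with their values in view. The members, motifs and gene lists were chosen with earlier results of these data known.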

Additional observations from a re-analysis of the deposited data

How the results depend on the processing

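The number of sites, their strength, footprint share, GC content, CpG ratio, CTCF and CAGATG shares, upstream share, nearest-gene promoter share and the class differences named here were recomputed with 50% reciprocal overlap, stricter peaks (a base at FDR 0.0001 or lower in each library), the larger read-derived lists, equal list sizes, gene 5′ ends as TSSs, protein-coding genes only, whole peaks outside gene bodies, and each library alone, the sequence measures also with windows of 100 and 200 bp and the footprint shares with footprints wholly inside the peak; the alignment-derived lists and sites without a CTCF match were added after seeing the data. Of 175 recomputed values, 124 were counted as unchanged. They include 54 of the 66 class differences, for which unchanged means that the interval still included, or still left out, 0. Among the other class differences, the interval came to include 0 in 5 and to leave it out in 7. None of the 66 changed sign. The remaining values are counts, shares and medians, which cannot change sign. For these, unchanged means within the spread used, and 39 moved beyond it. The larger read-derived lists stood in for both other choices of list intended at first, since the smaller ones define the sites. The number of sites was 2621 with stricter peaks and 6932 with the larger alignment-derived lists, against 4495. It was counted as unchanged at 3346 with smaller alignment-derived lists, 6148 with larger read-derived lists and 6285 without replicate 1. The median of the mean percentile, 42.81, was 55.91 with stricter peaks, 46.25 with larger read-derived lists, 50.08 with protein-coding genes, 49.37 with larger alignment-derived lists and 34.68 to 35.44 with 1 library left out. The share with a footprint in both libraries, 89.86%, was 90.76% with reciprocal overlap, 95.92% with stricter peaks and 79.33% with larger read-derived lists. It was 91.56% with equal list sizes and 74.74% with larger alignment-derived lists. With 1 library left out the measure differs, since it takes all peaks of the other library and a footprint in that library alone. It was then 90.09 to 93.81%. The difference in footprint share from sites beyond 50 kb, 3.403 points, was 0.6163 to 2.959 with 1 library left out. Without replicate 1 its interval included 0. Median GC content was 54.0% with stricter peaks, protein-coding genes or 100 bp windows, 52.5% with 200 bp windows, 52.67% with larger alignment-derived lists and 52.67 to 53.33% with 1 library left out. The median CpG ratio was 0.3359 with protein-coding genes, 0.283 with larger alignment-derived lists and 0.2829 to 0.299 with 1 library left out. The CTCF share, 9.922%, was 9.044% with larger read-derived lists, 11.39% with protein-coding genes, 8.966% with 100 bp windows, 8.54% with larger alignment-derived lists and 8.369 to 9.746% with 1 library left out. The CAGATG share, 20.67%, was 18.4% with protein-coding genes, 15.15% with 100 bp and 25.38% with 200 bp windows. For CTCF against sites at 1 to 10 kb (-1.531 points), the interval included 0 with stricter peaks (-1.355), gene 5′ ends (-1.16), protein-coding genes (-0.3757) and smaller alignment-derived lists (-0.8949). For CAGATG against sites beyond 50 kb (-2.269 points, interval including 0), the interval left 0 out with larger read-derived lists (-2.314), protein-coding genes (-2.907), 100 bp (-2.808) and 200 bp windows (-3.098), sites without CTCF (-3.285) and 1 library left out (-2.636 to -2.308). The upstream share, 51.84%, was 56.77% with gene 5′ ends and 57.15% with protein-coding genes. The share whose nearest gene had a shared promoter peak, 33.84%, was 27.51% with stricter peaks, 36.45% with larger read-derived lists, 27.77% with gene 5′ ends, 70.05% with protein-coding genes, 28.96% with smaller alignment-derived lists and 34.83 to 35.7% with 1 library left out. The cause of these shifts was not tested. Replicate 2 had the greater relative depth and more footprints, and the part of depth in footprints found in 1 library only was not tested. The other motifs, footprints on motifs, and the tRNA, VISTA, gene list, run and replicate results were not recomputed. No paired analysis was possible because the libraries form 1 group.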
